A study of Mus musculus with 4 samples.

Results

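The genes described here are 10 mouse genes of GTPases that interferon-gamma induces: the guanylate-binding protein (GBP) genes Gbp2, Gbp3, Gbp5, Gbp6, Gbp7, Gbp8 and Gbp9, and the immunity-related GTPase (IRG) genes Irgm1, Irgm2 and Igtp. They were chosen by name from the rows of a count table of 55487 genes, and all 10 were found and passed the filter on low counts, among 13496 genes tested. The table holds RNA sequencing of myeloid cells sorted from mouse livers as CD45+ CD3- CD11c- CD11b+, with 2 libraries of LysM-Cre IL10R wt/wt and 2 of LysM-Cre IL10R fl/fl. Both groups carry LysM-Cre, which expresses Cre from the lysozyme 2 locus in macrophages, monocytes and granulocytes, and they differ in whether the interleukin-10 (IL-10) receptor gene is floxed. The labels do not name the floxed chain, the age of the mice or whether the livers held tumours, and they do not say that the libraries came from separate animals, so that p-values measure the spread between these libraries. The comparison asks which genes change in these cells when the receptor gene is floxed.

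GBPs and IRGs are enzymes that bind and hydrolyse GTP and belong to the strongest transcriptional responses of macrophages to interferon-gamma. The cytokine binds IFNGR1 and IFNGR2, whose signal runs through the kinases JAK1 and JAK2. GAS and ISRE elements are the promoter motifs known for responses to interferons, and the factor IRF1, itself induced by interferon-gamma, binds the ISRE. GBPs coat vacuoles and bacteria in the cytosol and promote inflammasome activation, whereas the Irgm proteins are regulators that keep the other IRGs inactive on the membranes of the cell.

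The genes lie on 3 chromosomes of the GRCm38 genome. Gbp5, Gbp7, Gbp3 and Gbp2 are on chromosome 3 between 142493978 and 142638008 on the plus strand, Gbp8, Gbp9 and Gbp6 on chromosome 5 between 105014150 and 105293698 on the minus strand, and Irgm1, Igtp and Irgm2 on chromosome 11, Irgm1 from 48861968 to 48871683 on the minus strand and the other 2 between 58199556 and 58222782 on the plus strand. RefSeq promoter windows of GRCm38.p6, from 250 bases before to 50 after a transcript start, were held for 7 of the 10 genes (not for Gbp6, Gbp8 and Gbp9). Each of these 7 had a match to GAAANNGAAA, the core of the ISRE, on either strand, and 4 of them (Gbp5, Gbp7, Irgm2 and Igtp) also one to TTCNNNGAA, the GAS motif. Among all 32851 windows, 3.44% held the first motif, 8.3% the second and 0.454% both. A second start of Gbp3 held neither motif. A match is a description of the letters and not a site shown to be bound.

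The windows of 5 genes are shown as examples of the arrangements found: a single ISRE match in Gbp2 (chr3:142620413-142620712, plus strand), 2 overlapping ISRE matches in Irgm1 (chr11:48871371-48871670, minus strand), 2 GAS matches before an ISRE match in Gbp7 (chr3:142530086-142530385, plus strand), and a GAS match 2 bases before an ISRE match in Irgm2 (chr11:58214727-58215026, plus strand) and in Igtp (chr11:58199306-58199605, plus strand). Capitals mark the matches, and GAS and ISRE matches did not overlap each other in any of them. Gbp5, not shown, had an ISRE match at -165 from its annotated start, between GAS matches at -245 and -52.
Gbp2: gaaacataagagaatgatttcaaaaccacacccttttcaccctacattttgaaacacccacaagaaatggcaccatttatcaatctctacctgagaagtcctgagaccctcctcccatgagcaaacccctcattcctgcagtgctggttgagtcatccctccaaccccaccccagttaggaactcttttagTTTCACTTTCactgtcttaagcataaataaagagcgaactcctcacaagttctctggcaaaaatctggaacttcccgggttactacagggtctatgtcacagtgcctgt
Gbp7: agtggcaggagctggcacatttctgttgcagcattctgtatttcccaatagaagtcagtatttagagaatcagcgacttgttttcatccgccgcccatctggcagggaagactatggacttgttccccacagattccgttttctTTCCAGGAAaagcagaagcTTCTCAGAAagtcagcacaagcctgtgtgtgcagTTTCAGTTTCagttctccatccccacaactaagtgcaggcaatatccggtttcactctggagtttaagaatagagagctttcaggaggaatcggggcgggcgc
Irgm1: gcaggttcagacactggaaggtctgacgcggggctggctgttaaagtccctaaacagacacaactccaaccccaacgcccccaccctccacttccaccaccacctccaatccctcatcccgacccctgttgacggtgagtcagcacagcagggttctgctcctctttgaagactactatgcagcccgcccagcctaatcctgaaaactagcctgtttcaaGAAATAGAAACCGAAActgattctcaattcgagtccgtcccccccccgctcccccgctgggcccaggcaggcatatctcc
Irgm2: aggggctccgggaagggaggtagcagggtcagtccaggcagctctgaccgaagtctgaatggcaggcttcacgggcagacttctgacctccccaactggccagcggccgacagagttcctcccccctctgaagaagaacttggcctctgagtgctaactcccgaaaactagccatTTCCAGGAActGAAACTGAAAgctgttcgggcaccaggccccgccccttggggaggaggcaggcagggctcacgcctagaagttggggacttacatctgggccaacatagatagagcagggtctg
Igtp: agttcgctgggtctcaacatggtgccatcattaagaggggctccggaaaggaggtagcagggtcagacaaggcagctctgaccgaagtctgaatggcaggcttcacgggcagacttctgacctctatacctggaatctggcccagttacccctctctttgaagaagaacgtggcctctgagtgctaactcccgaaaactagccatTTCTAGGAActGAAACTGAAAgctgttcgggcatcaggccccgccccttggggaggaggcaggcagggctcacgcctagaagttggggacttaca
Relative to the annotated start, the ISRE match began at -59 in Gbp2, at -53 in Gbp7, at -30 and -24 in Irgm1, at -64 in Irgm2 and at -34 in Igtp. The longest run of bases that the Irgm2 and Igtp windows share without a mismatch is 61 bases, and it starts after the GAS and ISRE matches. The letters around these matches are also nearly identical in the 2 windows. The ISRE match is GAAACTGAAA in both, and the GAS matches, TTCCAGGAA in Irgm2 and TTCTAGGAA in Igtp, differ by a single letter. The matches of Irgm2 and Igtp are therefore not separate examples of the arrangement.

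Total counts were 22694136 and 26441014 for wt/wt 1 and 2, and 17750343 and 17154042 for fl/fl 1 and 2. Il10ra, the ligand-binding receptor chain, stood at 1111 and 993 CPM (counts scaled to library size by TMM) in the wt/wt libraries against 69.3 and 14.8 in the fl/fl libraries (log2 ratio of fl/fl over wt/wt -4.64 ± 0.68, SE; edgeR adjusted p = 0.0193). Only fl/fl 2 held Xist RNA, at 4298 counts, so that the sexes are mixed within fl/fl. Neutrophil and granulocyte precursor markers were higher in fl/fl. The 8 neutrophil markers summed to 2181 and 2942 CPM in the wt/wt libraries and 26241 and 11053 CPM in the fl/fl libraries, with 6 of 8 past the threshold. The 8 precursor markers summed to 1042 and 1067 against 12359 and 6523, with 8 of 8 past it. Of all tested genes, 2.69% were called higher. Of 9 Kupffer cell markers, Clec4f, Vsig4, Timd4 and Marco stayed below the filter, at up to 1.20 CPM. The macrophage genes C1qa, C1qb and C1qc fell, from 231 and 230 to 41.1 and 12.3 CPM for C1qa (adjusted p = 0.0231, edgeR). The remaining markers, Adgre1 and Cd5l, did not pass. Adgre1 stood at 178 and 183 CPM in the wt/wt libraries against 150 and 156 in the fl/fl libraries (log2 fold change -0.24, adjusted p = 0.406, edgeR). Cd5l had a positive log2 fold change (1.00, adjusted p = 0.598, edgeR). In such bulk samples, fewer cells of a type and less RNA per cell cannot be told apart, and the part of the cell mixture in the results below was not tested.

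None of the 10 GTPase genes passed the test between the genotypes, and in each of them except Gbp9 the 2 wt/wt libraries differed more than the genotypes did. All 10 log2 fold changes were negative, as were 48.1% of those of all tested genes, and they ran from -1.12 for Gbp9 to -0.09 for Gbp6, with a median of -0.29 against 0.02 for all tested genes. By the edgeR quasi-likelihood test, 0 of 10 had an adjusted p under 0.05 and 1, Gbp9, an unadjusted p under 0.05, where 5.85% of all tested genes were called in either direction, 3.16% as lower and 2.69% as higher, and 22.5% had an unadjusted p under 0.05. DESeq2 called 1 of them, Gbp9, as lower and limma-voom 0, where they called 834 and 410 of all 13496 tested genes lower. The sum over the 10 genes was 1553 CPM in wt/wt 1, 725 in wt/wt 2, 889 in fl/fl 1 and 765 in fl/fl 2. The sums of fl/fl thus lay between those of the wt/wt libraries.

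**Figure D1:**
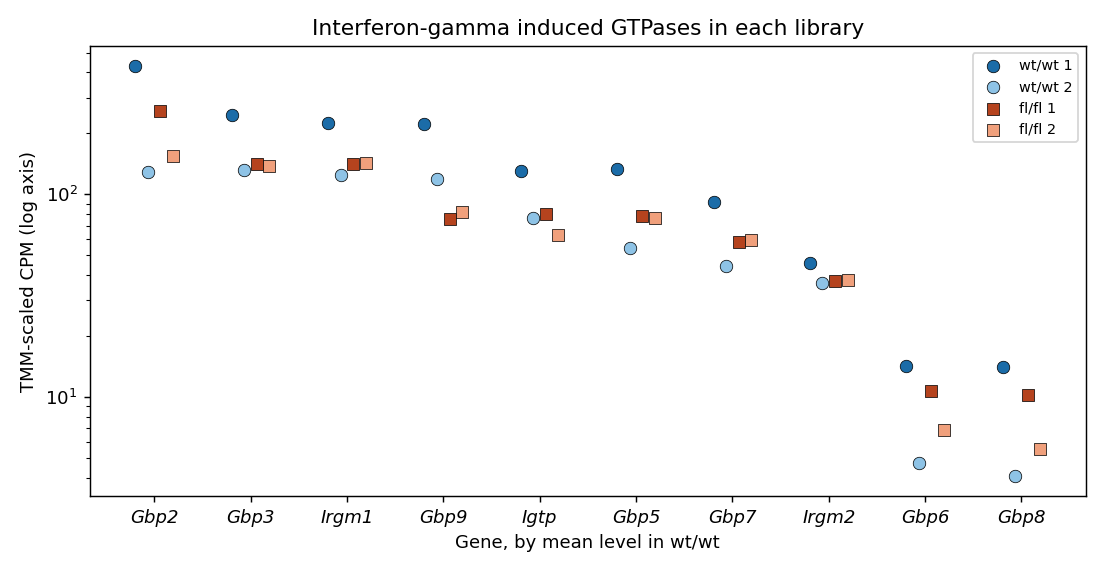
TMM-scaled CPM (log axis) of the 10 GTPase genes, ordered by their mean in wt/wt, with 1 point per library (circles wt/wt, squares fl/fl). The wt/wt 1 point is the highest of every gene, and only Gbp9 has both fl/fl points below both wt/wt points.

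Gbp9 was the gene with the largest difference and the only one of the 10 whose genotypes did not overlap. Its levels were 224 and 119 CPM for wt/wt 1 and 2 against 75.5 and 81.7 CPM for fl/fl 1 and 2. Both fl/fl libraries lay below both wt/wt libraries, a pattern of 26.3% of all tested genes. The mean of Gbp9 was 171 ± 74.3 CPM for wt/wt against 78.6 ± 4.38 CPM for fl/fl (each SD, n = 2), a 2.18-fold difference. The log2 fold change was -1.12 ± 0.29 (SE; 95% interval -1.82 to -0.43; adjusted p = 0.0773, edgeR, so not called). Its adjusted p was 0.00434 in DESeq2 and 0.0807 in limma-voom, and it ranged from 9.13e-07 (no filter on low counts) to 0.350 (without wt/wt 1) over 13 alternatives. Leaving out wt/wt 1 gave a Gbp9 log2 fold change of -0.64, and leaving out wt/wt 2 one of -1.51, and its direction held with each library left out. Under the other scalings, Gbp9 kept its separation, and Igtp was separated as well with library sizes alone.

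The other genes of the chromosome 5 cluster, Gbp6 and Gbp8, were the weakest of the 10. Gbp6 stood at 14.2 and 4.72 CPM in the wt/wt libraries against 10.8 and 6.91 in the fl/fl libraries, and Gbp8 14.1 and 4.09 against 10.2 and 5.54. In both genes the order was wt/wt 1, fl/fl 1, fl/fl 2 and wt/wt 2, so that the fl/fl libraries sat inside the wt/wt range. The log2 fold changes were -0.09 (95% interval -1.34 to 1.15) and -0.20 (-1.60 to 1.21). The intervals therefore include a 2-fold change in either direction, and the data do not show that these genes were alike in the genotypes. Both changed sign when wt/wt 1 was left out (0.86 and 0.90) or fl/fl 2 was (0.20 and 0.19). Their counts are also the most exposed to near-identical copies: 70.7% of the 50-base stretches of Gbp6 transcripts and 18.1% of those of Gbp8 occur in transcripts of another annotated gene, against 8.05% for Gbp9. Most of those of Gbp6 are shared with Gm43302, a gene that overlaps Gbp6 and Gbp10, was looked up after the Gbp6 values were seen and had 0 counts in all 4 libraries. How reads of such stretches were assigned is not given in the sources used here.

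Gbp2, whose protein is anchored to vacuole membranes and promotes caspase-11 and AIM2 inflammasomes, was the most abundant of the chromosome 3 cluster. It stood at 428 and 129 CPM in the wt/wt libraries against 257 and 154 in the fl/fl libraries. The wt/wt libraries differed 3.31-fold, which spans both fl/fl values, and the log2 fold change was -0.44 ± 0.52 (SE; 95% interval -1.67 to 0.80; adjusted p = 0.692, edgeR). Gbp3 stood at 247 and 132 CPM in the wt/wt libraries against 141 and 137 in the fl/fl libraries (log2 fold change -0.44, 95% interval -1.12 to 0.24). Gbp5, which takes part in inflammasome assembly, stood at 133 and 54.4 CPM in the wt/wt libraries against 77.8 and 76.3 in the fl/fl libraries (-0.28, -1.18 to 0.61). Gbp7, known for supporting NADPH oxidase assembly on phagosomes, stood at 91.5 and 44.2 CPM in the wt/wt libraries against 58.5 and 59.3 in the fl/fl libraries (-0.20, -0.97 to 0.56). In each of these 4 genes wt/wt 1 was the highest library and wt/wt 2 the lowest. Without wt/wt 1 all 4 turned positive, at 0.62 for Gbp2, 0.03 for Gbp3, 0.45 for Gbp5 and 0.37 for Gbp7.

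The regulatory IRG genes on chromosome 11 differed by smaller ratios between the wt/wt libraries than the other 7 genes did, a description with no test. Irgm1, which is needed for resistance of macrophages to mycobacteria, stood at 225 and 125 CPM in the wt/wt libraries against 141 and 143 in the fl/fl libraries (log2 fold change -0.30, 95% interval -0.95 to 0.35; 0.14 without wt/wt 1). Irgm2, a regulator at the Golgi membrane, stood at 45.6 and 36.6 CPM in the wt/wt libraries against 37.6 and 37.7 in the fl/fl libraries (-0.13, -0.56 to 0.31). This is the narrowest interval of the 10 and leaves out a 2-fold change in either direction. Igtp, also named Irgm3, a regulator at the endoplasmic reticulum and on lipid droplets, stood at 130 and 76.4 CPM in the wt/wt libraries against 80.2 and 63.0 in the fl/fl libraries (-0.53, -1.18 to 0.12; adjusted p = 0.314, edgeR). The Igtp values overlapped, with fl/fl 1 above wt/wt 2, and its log2 fold change stayed negative with each library left out, from -0.86 to -0.14. Igtp and Irgm2 overlap on the same strand, and 8.01% of the exonic bases of Igtp lie in exons of Irgm2.

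**Figure D2:**
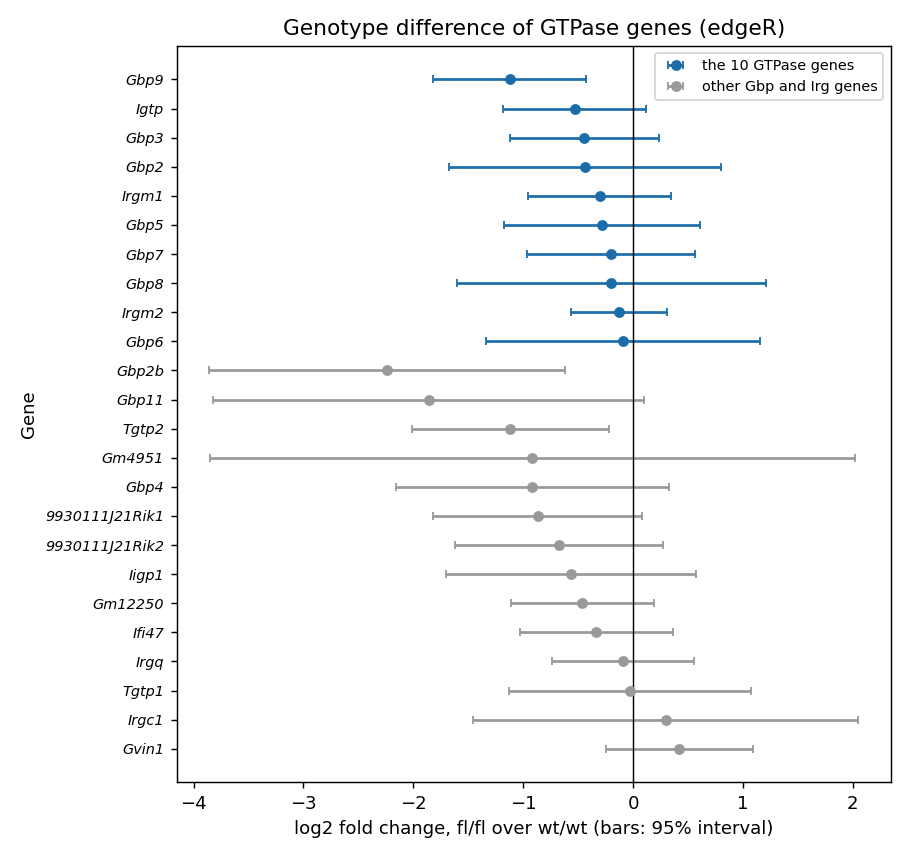
Log2 fold changes of fl/fl over wt/wt (edgeR) with 95% intervals for the 10 GTPase genes (blue) and 14 other Gbp and Irg genes (grey). All 10 blue points are below 0, and among them only the interval of Gbp9 leaves out 0, before adjustment over all genes.

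Levels per length followed nearly the same order in every library. Per kilobase of exonic sequence, the mean in wt/wt was 111 CPM for Gbp2, 58.0 for Gbp3, 51.1 for Igtp, 33.1 for Gbp9, 30.1 for Irgm1, 14.1 for Gbp5, 12.1 for Gbp7, 11.1 for Irgm2, 2.64 for Gbp8 and 1.59 for Gbp6. Gbp2, Gbp3 and Igtp were the leading genes in that order in all 4 libraries, and Gbp8 and Gbp6 the last. The ranks of the others changed between libraries: Gbp9 was above Irgm1 per kilobase in wt/wt, at 43.2 against 38.8 and 22.9 against 21.4, and below it in fl/fl, at 14.6 against 24.2 and 15.8 against 24.6. Of the 9 steps between neighbours in this order, only 1, from Irgm2 down to Gbp8, was larger than the gap between the wt/wt libraries of both genes.

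The spread between the wt/wt libraries was shared by the whole family. Wt/wt 1 was above wt/wt 2 in 10 of 10 genes under each of 4 scalings, against 50% of all tested genes with TMM factors, by 1.25-fold for Irgm2 to 3.44-fold for Gbp8. The median log2 ratio of wt/wt 1 over wt/wt 2 was 0.98 for the 10 genes and 0.00 for all tested genes, where the middle range (5th to 95th percentile) ran from -0.88 to 0.99. Gbp8, Gbp2, Gbp6, Gbp5 and Gbp7 lay above that range and the other 5 inside it. Between the fl/fl libraries the median log2 ratio was 0.03. There Gbp2, Gbp6 and Gbp8 were higher in fl/fl 1, by 1.67-fold, 1.56-fold and 1.85-fold, whereas Gbp3, Gbp5, Gbp7, Gbp9, Irgm1 and Irgm2 differed by ratios of 0.924 to 1.03. In 8 of the 10 genes, all but Gbp9 and Igtp, both fl/fl values fell between the wt/wt values, as they did in 8.34% of all tested genes. Irgm2 left this group with library sizes alone or upper quartile scaling.

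**Figure D3:**
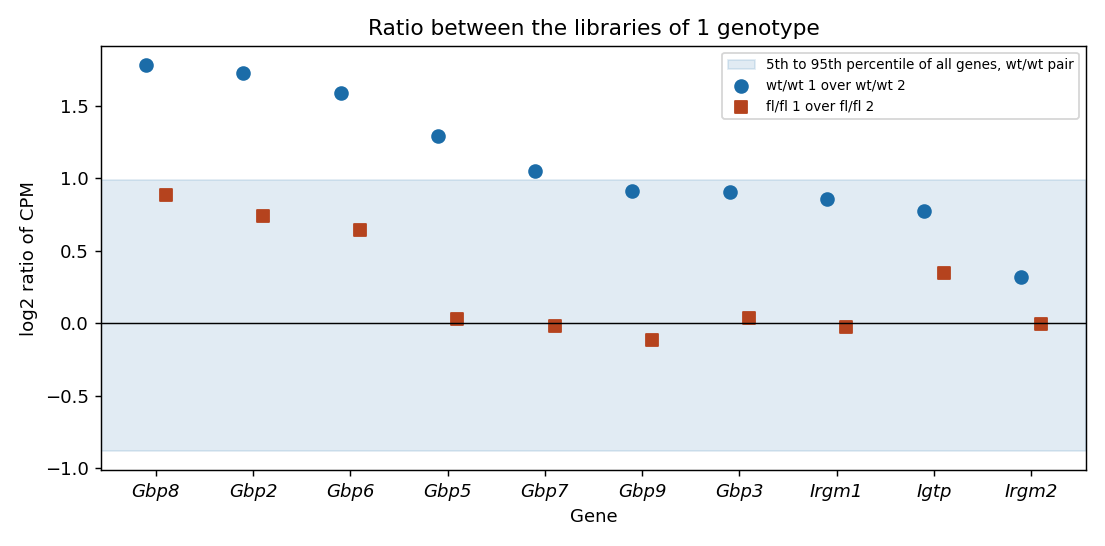
Log2 ratio of CPM between the 2 libraries of a genotype for each of the 10 GTPase genes, with circles for wt/wt 1 over wt/wt 2 and squares for fl/fl 1 over fl/fl 2. The shaded band holds the middle range of all tested genes for the wt/wt pair, -0.88 to 0.99. All circles are above 0, and 5 of them are above the band.

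The size of the genotype difference of the family therefore depended on both wt/wt libraries, and the sign of its median on wt/wt 1. Without it, 3 of the 10 genes had a negative log2 fold change and the median was 0.25, and without wt/wt 2 all 10 were negative with a median of -0.81. The medians without fl/fl 1 and fl/fl 2 were -0.49 and -0.23. The edgeR test called 0 of the 10 in each of these 4 fits, and an unadjusted p under 0.05 was found for 1, 7, 2 and 1 genes without wt/wt 1, wt/wt 2, fl/fl 1 and fl/fl 2. Over all genes it called 0 without either wt/wt library, where 1576 and 2333 had an unadjusted p under 0.05 and DESeq2 called 496 and 784.

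**Figure D4:**
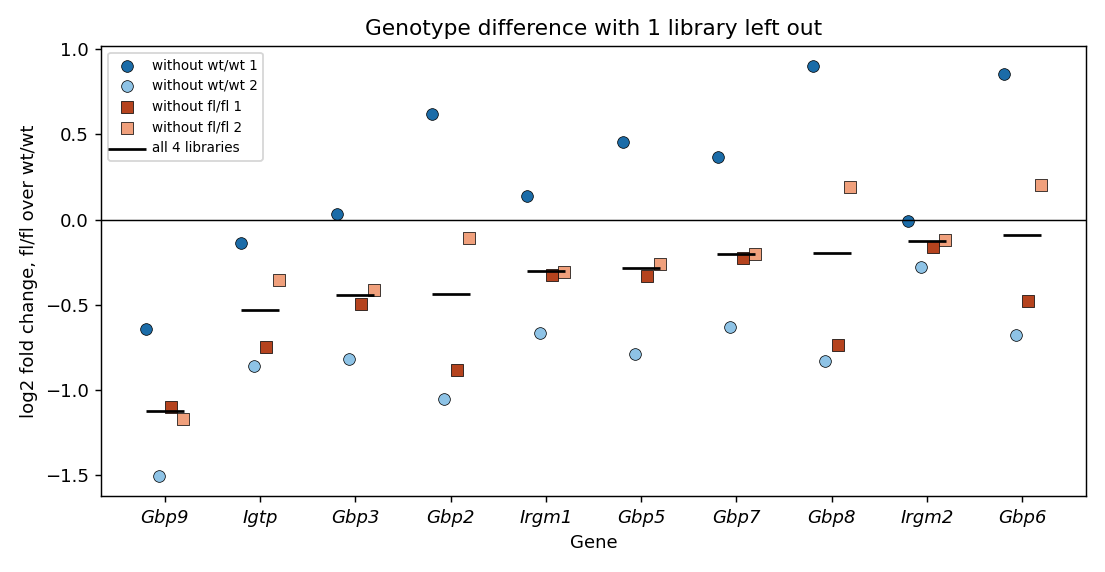
Log2 fold change of fl/fl over wt/wt (edgeR) of each of the 10 GTPase genes with all 4 libraries (black bars) and with 1 library left out (points, by library). Without wt/wt 1 (dark circles), 7 of the 10 genes are above 0; Gbp9, Igtp and Irgm2 stay below 0 in each of the 5 fits plotted.

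Of 21 other Gbp and Irg genes, 17 were found by symbol, 14 were tested and 12 had a negative log2 fold change, with a median of -0.62. None passed in edgeR (2 at an unadjusted p under 0.05, against 22.5% of all tested genes). DESeq2 called 2 lower, Gbp2b and Tgtp2, and limma-voom 0, where they called 834 and 410 of all 13496 tested genes lower. EdgeR without a filter on low counts called 3 lower, Gbp2b, Gbp4 and Tgtp2, where it called 1071 of 22696 genes lower. Gbp2b, the close copy of Gbp2, stood at 5.48 and 1.95 CPM in the wt/wt libraries against 0.990 and 0.571 in the fl/fl libraries (log2 fold change -2.24, adjusted p = 0.111, edgeR). Tgtp2, an effector IRG that is loaded onto vacuoles, stood at 44.1 and 19.5 CPM in the wt/wt libraries against 13.7 and 15.5 in the fl/fl libraries (-1.12, adjusted p = 0.142, edgeR). Both fl/fl libraries were below both wt/wt libraries in 5 of the 14 (Gbp2b, Tgtp2, Gbp11, Gm12250 and 9930111J21Rik1), against 26.3% of all tested genes, and above them in 0. Gbp4, the neighbour of Gbp9, stood at 78.0 and 22.4 CPM in the wt/wt libraries against 30.7 and 22.5 in the fl/fl libraries, and the effector IRG gene Ifi47 held 242 and 127 against 150 and 142. The log2 fold changes of the rest were -1.86 for Gbp11, -0.92 for Gm4951, -0.87 for 9930111J21Rik1, -0.67 for 9930111J21Rik2, -0.57 for Iigp1, -0.46 for Gm12250, which encodes an IRG also called Irgb10, -0.09 for Irgq, -0.03 for Tgtp1, 0.30 for Irgc1 and 0.42 for Gvin1. Wt/wt 1 was above wt/wt 2 in 13 of the 14, by a median log2 ratio of 1.09.

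The upstream pathway was present in all libraries except for the cytokine itself. Ifng had 0 and 1 counts in the wt/wt libraries and 7 and 3 counts in the fl/fl libraries, too few to be tested. Ifngr1 stood at 280 and 363 CPM in the wt/wt libraries against 368 and 451 in the fl/fl libraries, and Ifngr2 145 and 157 against 123 and 165. Jak1 stood at 205 and 184 CPM in the wt/wt libraries against 187 and 195 in the fl/fl libraries, so that the fl/fl values lay inside the wt/wt range. Jak2 stood at 190 and 120 CPM in the wt/wt libraries against 101 and 90.1 in the fl/fl libraries (log2 fold change -0.70, adjusted p = 0.144, edgeR). Irf1 stood at 914 and 401 CPM in the wt/wt libraries against 758 and 820 in the fl/fl libraries: like most of the GTPases it was highest in wt/wt 1 and lowest in wt/wt 2. Irf8, a myeloid factor that binds with Irf1, stood at 558 and 404 CPM in the wt/wt libraries against 272 and 317 in the fl/fl libraries (-0.71, adjusted p = 0.102, edgeR), and Socs1, the feedback inhibitor of JAK kinases, 58.4 and 31.5 against 28.2 and 18.9 (-0.93, adjusted p = 0.162). Usp18, which removes ISG15 and restrains interferon signalling, stood at 99.2 and 83.6 CPM in the wt/wt libraries against 27.2 and 50.7 in the fl/fl libraries (-1.23, adjusted p = 0.0630, edgeR). Both fl/fl libraries were below both wt/wt libraries in 6 of the 12 tested signalling genes (Jak2, Irf8, Socs1, Usp18, Irf9 and Ptpn2) and above them in 2 (Ifngr1 and Ptpn6), patterns of 26.3% and 28.1% of all tested genes. Of the 12 tested signalling genes, 0 passed in edgeR and 4 had an unadjusted p under 0.05, against 22.5% of all tested genes. DESeq2 called Irf8 and Usp18 lower, where it called 834 of all 13496 tested genes lower. Usp18 was also called lower by limma-voom (adjusted p = 0.0464) and by edgeR with library sizes alone, with the replicate block, and without fl/fl 1 or fl/fl 2 (0.0446 and 0.00151). Socs1 was called lower with the block (adjusted p = 0.0264, edgeR), and Jak2, Irf8, Socs1 and Usp18 in edgeR without a filter on low counts.

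Of 24 other tested target genes of interferon-gamma, 2 fell and 22 did not pass, where 3.16% of all tested genes were called lower. Among the 22, Cxcl11 had the most negative log2 fold change (-2.35, adjusted p = 0.0517, edgeR). It stood at 11.1 and 5.89 CPM in the wt/wt libraries against 1.05 and 2.28 in the fl/fl libraries. DESeq2 called 3 lower, Cxcl10, Cxcl11 and Fcgr1, where it called 834 of all 13496 tested genes lower. Limma-voom called 2, Cxcl10 and Fcgr1. Cxcl11 was also called lower by edgeR under the other scalings, with the other filters and with the replicate block. Cxcl10, a chemokine for T cells, stood at 637 and 347 CPM in the wt/wt libraries against 185 and 209 in the fl/fl libraries (log2 fold change -1.32 ± 0.29, SE; adjusted p = 0.0487, edgeR), and did not pass without fl/fl 1 (0.0579). Fcgr1, the high-affinity IgG receptor, held 479 and 394 against 242 and 181 (-1.05 ± 0.20, SE; adjusted p = 0.0362). The median of the list was 0.12, with 10 genes negative and 14 positive. Without a filter on low counts, edgeR called 4 lower and 1, Nos2, higher, where it called 1071 lower and 1017 higher of 22696 genes. Nos2 stood at 4.99 and 3.87 CPM in the wt/wt libraries against 36.5 in fl/fl 1 and 0.970 in fl/fl 2. It was thus high in 1 library only. Of the 24 genes, 21 were higher in wt/wt 1 than in wt/wt 2, at a median log2 ratio of 0.43. A list of 13 tested genes covered the ATG8 system that directs IRGs and GBPs to vacuoles, and also held Traf6, Trim21 and Sqstm1. Of the 13, 0 passed in edgeR and 4 had an unadjusted p under 0.05, against 22.5% of all tested genes. DESeq2 called 1 lower, Traf6, and limma-voom 0. Without a filter on low counts, edgeR called Traf6 lower and Atg3 higher. Those with the smallest p were Traf6 (-0.61, adjusted p = 0.0901, edgeR), Atg3 (0.61, 0.105) and Gabarapl2 (0.43, 0.193). Among 11 inflammasome genes that act downstream of GBPs, 1 fell in edgeR and 10 did not pass, where 3.16% of all tested genes were called lower. The gene that fell was Ninj1, which ruptures the plasma membrane at the end of lytic cell death. Ninj1 stood at 258 and 262 CPM in the wt/wt libraries against 127 and 120 in the fl/fl libraries (-1.08 ± 0.15, SE, adjusted p = 0.0182, edgeR). Fits without wt/wt 1 or wt/wt 2 keep a single wt/wt library, and only their log2 fold changes are given for the genes that fell. Without wt/wt 1 and without wt/wt 2 these were -0.87 and -1.69 for Cxcl10, -0.95 and -1.18 for Fcgr1, and -1.13 and -1.06 for Ninj1.

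Marker genes of lymphocytes, the usual source of interferon-gamma, were low in these cells, which were sorted as CD3- CD11b+. The sort on CD3- leaves out T cells, so these values do not describe the lymphocytes of the livers. The 8 T cell markers summed to 1.21 and 1.14 CPM in the wt/wt libraries and 1.75 and 1.94 CPM in the fl/fl libraries, and 7 of them were below the filter. The 8 NK cell markers summed to 26.1 and 15.4 CPM in the wt/wt libraries and 41.8 and 41.3 CPM in the fl/fl libraries. Of these, Gzma, Prf1 and Nkg7 rose in fl/fl, where 2.69% of all tested genes were called higher. The defining genes Ncr1 and Eomes were below the filter, at up to 0.809 CPM. The sums of the neutrophil markers, 2181 and 2942 CPM in wt/wt 1 and 2, were in the opposite order to the GTPase sums of the same libraries. In fl/fl 1 and 2 the orders were the same, at 26241 and 11053 CPM for the neutrophil markers and 889 and 765 CPM for the GTPase genes. In wt/wt 1 and 2 the NK cell marker sums were in the same order as the GTPase sums, through Klrk1, at 21.2 and 9.84 CPM. Prf1, Gzmb and Klrb1c were instead lower in wt/wt 1. The part of any of these cells in the GTPase levels was not tested.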

How the data were processed

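RNA was sequenced from sorted liver myeloid cells, 2 libraries per genotype, with poly(A) enrichment per the labels' protocols. The authors deposited 1 table of raw counts per Ensembl gene; the submitters' processing notes name FastQC 0.11.5, Trimmomatic 0.33, STAR 2.5.0 and GRCm38. How reads were counted, with which strand setting and on which annotation release, is not given in the sources used here, so reads of overlapping or near-identical genes may have been split or dropped. GENCODE release M 21 (GRCm38) gave symbols for 55227 identifiers; 260 had none.

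Differences between the genotypes were fitted in edgeR 4.0.16 (R 4.3.3), with filterByExpr at a minimum count of 10, TMM scaling, the quasi-likelihood F test without covariates and Benjamini-Hochberg adjustment over 13496 genes, called at an adjusted p under 0.05. Positive log2 fold changes are higher in fl/fl (prior count 0.125), and SE is the absolute value over the square root of F. An exact permutation test of 2 against 2 libraries cannot go below p = 0.333. In simulated data of this comparison with 13496 genes, the test called 2%, 68%, 100% and 100% of 50 genes changed by a log2 value of 0.5, 1, 2 and 3, with 9 calls among unchanged genes. Alternatives were other scalings, filters and prior count, DESeq2 1.42.0, limma-voom (limma 3.58.1), the replicate number as a block and each library left out; DESeq2 without a wt/wt library was added after seeing the data. The genes and lists were chosen with earlier results of these data known. Named genes were the 10 GTPases, Il10ra, all tested members of the list of other Gbp and Irg genes, Ifng, Ifngr1, Ifngr2, Jak1, Jak2, Irf1, Irf8 and Socs1, and in each other pathway list those called or, with none called, the 3 with the smallest p. A further gene that this rule names is not reported here and was left out of the signalling list. Cell type marker lists of 10 kinds were summed per library; those of classical monocytes, dendritic cells, B cells, sinusoidal endothelium and hepatocytes are given in the closing section.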

Additional observations from a re-analysis of the deposited data

How the results depend on the processing

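With 2 libraries a group, 2% of genes simulated at a log2 change of 0.5 were recovered, so that differences of the size seen in most of the GTPase genes are below what this design calls. The number of the 10 GTPase genes called lower was 0, and 1 (Gbp9) with library sizes alone, without a filter, in DESeq2, with the replicate number as a block and in DESeq2 without wt/wt 2; 0 were called higher in each setting. Over all genes, 363 were higher and 427 lower, against 1017 and 1071 without a filter, 784 and 834 in DESeq2, and 0 to 811 and 0 to 666 in edgeR with single libraries left out. DESeq2 without wt/wt 1 called 222 lower. The replicate block called 602 higher, against 363; the numbers do not pair the libraries by any label, and the deviations of same-numbered libraries correlated at 0.02 over genes. The median of the 10 genes ran from -0.81 to 0.25 in edgeR with single libraries left out, and was 0.28 in DESeq2 without wt/wt 1. With single libraries left out, Gbp2 ran from -1.05 to 0.62, Gbp3 from -0.82 to 0.031, Gbp5 from -0.79 to 0.45, Gbp6 from -0.68 to 0.86, Gbp7 from -0.63 to 0.37, Gbp8 from -0.83 to 0.90 and Irgm1 from -0.67 to 0.14. Of the other genes, Ifngr2 ran from -0.29 to 0.087, Jak1 from -0.10 to 0.0029, Irf1 from -0.21 to 0.93, Gbp4 from -1.55 to 0.20, Ifi47 from -0.72 to 0.16, Tgtp1 from -0.47 to 0.42, Iigp1 from -1.12 to 0.29, Gm4951 from -3.10 to 1.35, Irgc1 from -0.84 to 0.92 and Irgq from -0.27 to 0.065. Limma-voom gave 0.14 for Gbp6, 0.056 for Gbp8 and 0.018 for Tgtp1, and the replicate block 0.064 for Gbp6. The causes were not tested.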

Other observations

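The 6 classical monocyte markers summed to 4817 and 4202 CPM in the wt/wt libraries and 12674 and 5851 CPM in the fl/fl libraries. Chil3 held most of the difference between these sums, at 1370 and 714 against 8404 and 2069 CPM, and did not pass (adjusted p = 0.0865, edgeR). Of 7 dendritic cell markers, 1 fell, where 3.16% of all tested genes were called lower. The sums of the 7 were 202 and 190 CPM in the wt/wt libraries and 56.5 and 90.3 CPM in the fl/fl libraries. No B cell, sinusoidal endothelial or hepatocyte marker passed in edgeR with all 4 libraries; 1 hepatocyte marker was called higher without fl/fl 1 and 1 lower without fl/fl 2. The B cell markers summed to 5.47 to 11.2 CPM per library, the endothelial markers to 14.6 to 18.9 and the hepatocyte markers to 14.8 to 78.9. The sums of the Kupffer cell markers were 912 and 900 CPM in the wt/wt libraries and 297 and 207 CPM in the fl/fl libraries. Among these markers, C1qa, C1qb and C1qc fell, and Adgre1 and Cd5l did not pass.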
